A study of Mus musculus with 6 samples.

Results

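The nuclear genes of oxidative phosphorylation were followed in a deposited RNA-Seq table of mouse embryonic stem cells (ESCs) that differ in the histone variant H2A.Z. The members were the rows whose gene symbol begins with *Ndufa*, *Ndufb*, *Ndufc*, *Ndufs*, *Ndufv*, *Uqcr*, *Cox4* to *Cox8* or *Atp5*, or is *Sdha*, *Sdhb*, *Sdhc* or *Sdhd*. The rule found 90 of the 21639 rows, and no member symbol occurs in more than 1 row. Of these, 74 encode subunits: 36 of complex I, 4 of complex II, 8 of complex III, 11 of complex IV and 15 of complex V. *Ndufa4* was counted with complex IV, where the protein is now placed. The remaining 16 genes are not general subunits. They comprise 8 tissue-restricted isoforms, 4 complex I assembly factors (*Ndufaf1* to *Ndufaf4*) and 4 genes that only share a prefix or act as factors (*Atp5s*, *Atp5sl*, *Cox4nb* and *Cox7a2l*).

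The table holds 6 libraries, 1 for each of 3 lines as ESCs (D0) and as embryoid bodies (EBs) after 3 days of differentiation (D3). EBs are aggregates of ESCs that begin to differentiate once the growth factor LIF is withdrawn. H2A.Z WT cells carried a doxycycline-inducible H2A.Z-YFP transgene, and H2A.Z AP3 cells carried the same transgene with the acidic patch substitutions G92N, D97N and S98K, which place residues of canonical H2A into H2A.Z. Both transgenic lines also received short hairpins against the 3′ UTR of the cells' own H2A.Z, and H2A.Z KD denotes cells depleted of the endogenous gene. The labels give strain V6.5 (129SvJaexC57BL/6), whereas the transgenes were placed in KH2 ESCs. The transgene was driven by a CMV promoter under rtTA control, and YFP-positive cells were sorted. ESCs were maintained on irradiated mouse embryonic fibroblasts and passaged once without them before RNA was taken.

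The question was which genes respond to H2A.Z depletion or to loss of the extended acidic patch, before and during differentiation. With 1 library per condition no difference below could be set against a spread between cultures, so no p-value is given and each comparison describes 2 libraries. Depth estimated from the values themselves lay between 16.5 and 30.2 M reads, with the H2A.Z AP3 library at D0 the deepest. In bulk RNA, fewer cells of a type and less RNA per cell cannot be told apart.

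The targeted gene, *H2afz*, was measured at 279 RPKM (reads scaled to transcript length and to the mapped reads of the library) in the H2A.Z WT library at D0, 343 in the one labelled H2A.Z KD and 304 in the H2A.Z AP3 library. At D3 the values were 258, 236 and 394 RPKM. The library labelled H2A.Z KD, called KD-labelled from here on, was therefore the highest at D0 and the lowest at D3. The WT and AP3 lines carry an H2A.Z-YFP transgene, whose reads may count in this row beside those of the cells' own gene. The row is thus no like-for-like measure of depletion between the lines. The study's own measurements, by qRT-PCR and immunoblot, reported depletion of the endogenous gene and were not analysed here. *H2afv*, the second H2A.Z gene, stayed between 52.2 and 63.3 RPKM. The ESC marker *Pou5f1* lay between 358 and 540 RPKM in all libraries, and of 7 measured ESC markers none was at 0 in any library. *Klf4*, another of them, went from 121, 131 and 65.9 RPKM at D0 in the H2A.Z WT, KD-labelled and AP3 libraries to 17.4, 17.1 and 14.9 at D3, and the 7 together summed to 2460 to 2598 RPKM at D0 and 1664 to 2066 at D3. *Fgf5*, a marker of early differentiation, was at 0.106 to 1.11 RPKM at D0 and 5.51 to 7.45 at D3. The 10 fibroblast markers summed to 132 to 200 RPKM at D0 and 79.2 to 107 at D3, most of it from *Fn1*, which early embryonic cells also express. *Col1a1* was at 9.76, 7.42 and 15.5 RPKM at D0 in the WT, KD-labelled and AP3 libraries and at 1.54, 0.923 and 2.57 at D3.

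Oxidative phosphorylation takes electrons from NADH (complex I) and from succinate (complex II) through ubiquinone, complex III and cytochrome c to oxygen at complex IV. Complexes I, III and IV pump protons across the inner mitochondrial membrane, and complex V, the ATP synthase, lets them return through its Fo part to drive ATP synthesis in its F1 part. A few core subunits are encoded by mitochondrial DNA, and the nucleus encodes the others, including those measured here. Mouse ESCs combine glycolysis with respiration, and the balance between them shifts as the cells leave pluripotency. Promoters of nuclear respiratory genes are known for sites of NRF1, of the ETS factor GABP (also called NRF2) and of YY1.

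To show what the members' promoters have in common beyond their names, 3 short motifs were searched on both strands from 250 bases before to 50 bases after the annotated start, in RefSeq sequences of GRCm38.p6. This build differs from that of the expression table, so genes were joined by symbol only. Of the 90 members, 74 had an entry, 3 of them through a synonym. The NRF1 motif GCATGCGC was present for 11 of 74 members (14.9%), against 3.05% of all 27025 genes and 7.35% of 4259 other genes whose mean reached 10 RPKM. The YY1 site AAGATGGC was also present for 11 of 74 (14.9%), against 3.19% and 6.67%. The ETS site CCGGAAGT was found for 5 of 74 (6.76%), against 4.31% and 11.4%, a smaller share than in other well-expressed genes, and the difference was not tested. At least 1 of the 3 was present for 26 members (35.1%), against 9.91% and 23.4%. A match is a run of letters and not a measured binding site.

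**Figure D1:**
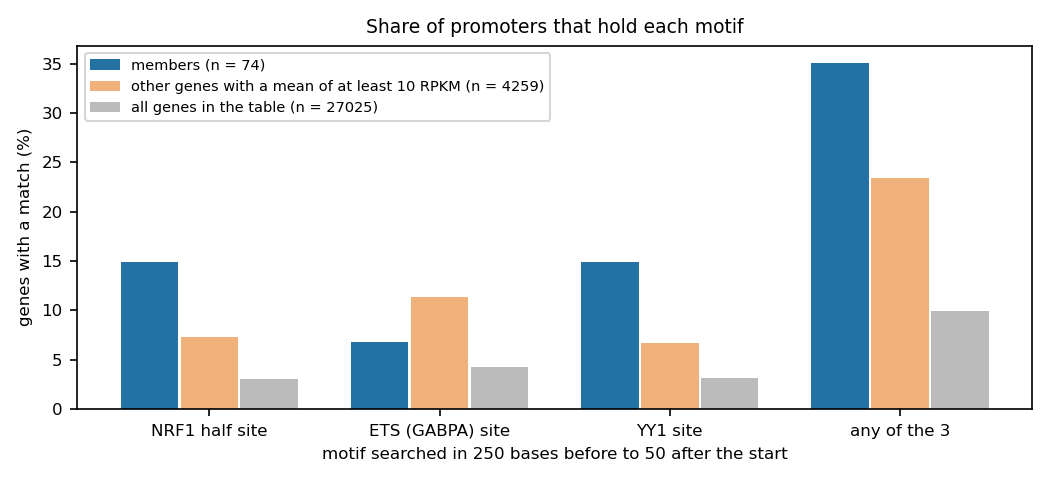
Share of promoters with each motif (y axis, percent of genes) for the members, for other genes whose mean reached 10 RPKM and for all genes of the RefSeq promoter table. The members' bars stand at 14.9% for NRF1 and YY1 and at 6.76% for ETS, the last being below the 11.4% of other well-expressed genes.

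The following 30-base windows, taken only from members with a match, are shown to give examples of each motif across the complexes. *Ndufb2* and *Ndufb6*, the subunits with the widest ranges of level, had none of the 3 motifs in their windows. Each runs 5′ to 3′ on the gene's strand, with the motif in capitals. The NRF1 windows are chr5:108434429-108434458 on the minus strand for *Atp5k*, chr17:56717693-56717722 on the plus strand for *Ndufa11*, chr4:140961206-140961235 on the plus strand for *Sdhb* and chr10:80406807-80406836 on the minus strand for *Uqcr11*.
Atp5k: ttcactgcggcGCATGCGCctttctggctt
Ndufa11: ctgcactgcgcGCATGCGCgcacgccttgt
Sdhb: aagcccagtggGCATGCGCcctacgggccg
Uqcr11: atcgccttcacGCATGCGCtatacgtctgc

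The NRF1 matches began at -48 relative to the start for *Atp5k*, -58 for *Ndufa11*, -54 for *Sdhb* and -4 for *Uqcr11*. In *Atp5k* and *Ndufa11* the match overlaps one on the other strand, since the bases around it form a palindrome. The YY1 windows are chr7:3617384-3617413 on the plus strand for *Ndufa3*, chr13:73328433-73328462 on the minus strand for *Ndufs6* and chr10:80249462-80249491 on the plus strand for *Ndufs7*. The ETS window is chr19:7217604-7217633 on the minus strand for *Cox8a*, where the match is on the opposite strand.
Ndufa3: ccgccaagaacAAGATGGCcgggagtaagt
Ndufs6: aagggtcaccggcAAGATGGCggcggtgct
Ndufs7: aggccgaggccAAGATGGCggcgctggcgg
Cox8a: atttccgaaatACTTCCGGctcgggcgtcc

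The YY1 matches of these complex I genes all lay just after the start, at 23 for *Ndufa3*, 34 for *Ndufs6* and 25 for *Ndufs7*. Complex I held 7 of the 11 members with a YY1 match and complex V held 3. NRF1 matches were spread over complexes I (3), II (1), III (2), IV (1) and V (3). The factors named by the motifs were themselves expressed. *Nrf1* lay between 13.4 and 17.2 RPKM, *Gabpa* between 19.7 and 25.5 and *Yy1* between 25.5 and 40.2, and none of these 3 passed 1.5-fold in any comparison.

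Members also often shared their promoter with a neighbour. In the annotation of the table's own assembly, 22 of 90 members (24.4%) had a protein-coding gene on the opposite strand that starts within 1000 bases upstream, against 7.86% of 19684 symbols of the table and 12.8% of 5690 other symbols whose mean reached 10 RPKM. *Ndufs1* starts 3 bases from *Eef1b2*, *Ndufa7* 29 bases from the ribosomal protein gene *Rps28*, and *Sdhd* 52 bases from *Timm8b*. *Cox4i1* and *Cox4nb*, both members and both counted, start 178 bases apart.

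The subunit genes were highly expressed in both ESCs and EBs. All 74 passed 10 RPKM somewhere, and 78 of the 90 members were at 10 RPKM or more in every library. The filter used for comparisons, at least 1 RPKM in 1 of the 2 libraries, was passed by 85 or 86 members, and the 4 members that never passed it were *Cox6a2*, *Cox7b2*, *Cox8b* and *Cox8c*. Summed over all members, the WT, KD-labelled and AP3 libraries held 8558, 8993 and 10075 RPKM at D0 and 10074, 9057 and 10638 RPKM at D3. These sums made up between 2.21% and 2.46% of each library's table. The H2A.Z WT library at D0 and the KD-labelled library at D3 were thus the lowest of their day, and H2A.Z AP3 was the highest on both days.

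**Figure D2:**
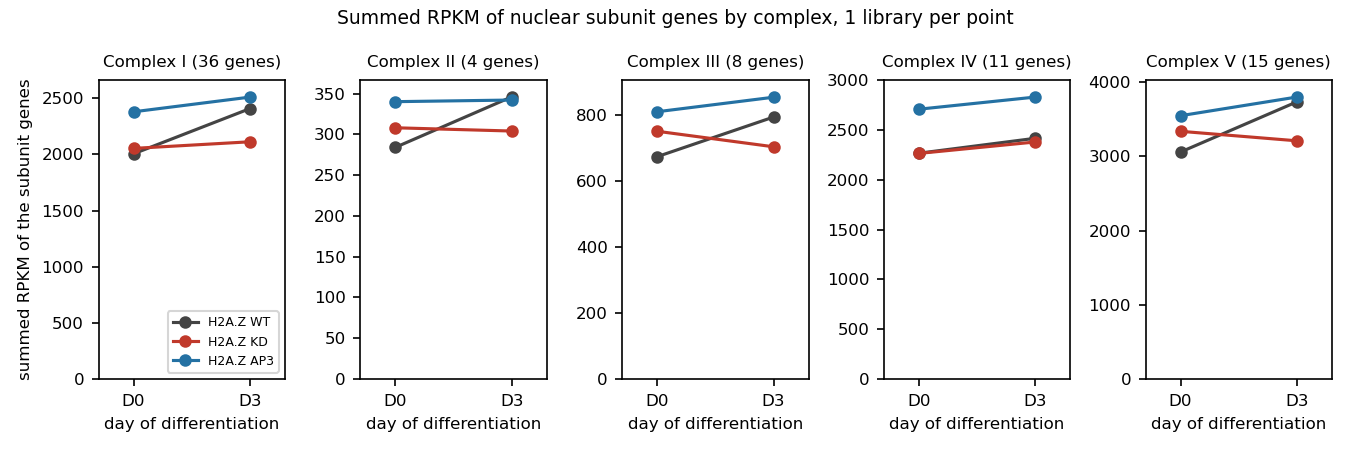
Summed RPKM of the subunit genes (y axis, from 0) of complexes I to V at D0 and D3 in the WT, KD-labelled and AP3 lines, with 1 library per point and lines joining the days of 1 line. For complex I the H2A.Z AP3 sums are 2380 and 2511 RPKM, above 2006 and 2409 in H2A.Z WT and 2054 and 2113 in the KD-labelled libraries.

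Within the 3 libraries of a day the order was similar across subunits. At D0 the H2A.Z AP3 library had the highest value for 56 of 74 subunits (75.7%), against 39.7% of 5112 other rows at 10 RPKM or more in all libraries. The H2A.Z WT library had the lowest value for 48 (64.9%, against 26.8%). At D3 the H2A.Z AP3 library was highest for 45 subunits (60.8%, against 45.6%) and the KD-labelled library was lowest for 56 (75.7%, against 41.9%). Over all 6 libraries, a subunit's highest value was between 1.09 and 2.72 times its lowest, with a median of 1.39. For the other rows the median was also 1.39, and the ratios ran from 1.03 to 13.45.

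Complex I, the NADH dehydrogenase, was the largest group. Its 7 core subunits, which carry the flavin and iron-sulfur clusters, changed little. *Ndufs1*, the largest of them, was at 46.2, 47.3 and 43.0 RPKM at D0 in the WT, KD-labelled and AP3 libraries and at 46.3, 48.7 and 47.1 at D3. *Ndufv1*, which binds NADH, was at 67.5, 68.1 and 76.7 RPKM at D0 and 77.7, 62.7 and 67.0 at D3. *Ndufv2* lay between 86.3 and 106 RPKM and *Ndufs8* between 18.6 and 25.2. No core subunit passed 1.5-fold in any of the 9 comparisons. The largest log2 change among them was 0.44, in *Ndufs7* from D0 to D3 in H2A.Z WT (78.6 and 107 RPKM) and in *Ndufs8* between H2A.Z AP3 and WT at D0.

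The 29 accessory subunits of complex I, which surround the core and are needed for its assembly and stability, held most of the larger differences. *Ndufb2* (chr6:39542582-39549470, mm9) was at 27.4 RPKM in the H2A.Z WT library at D0, 44.6 in the KD-labelled library and 64.6 in H2A.Z AP3. At D3 it was at 55.9, 36.4 and 74.4 RPKM. Among the subunits its range was the widest, and H2A.Z AP3 was highest on both days while the other lines changed places between days. Its exons overlap those of *Adck2* on the same strand, which was at 1.85 to 2.67 RPKM, and those of *Braf* on the other strand, at 8.49 to 10.9 RPKM. Their part in the *Ndufb2* values was not tested.

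*Ndufa3* (chr7:3568975-3571763) was at 23.0, 34.3 and 39.2 RPKM at D0 in the WT, KD-labelled and AP3 libraries and at 25.3, 27.2 and 41.7 at D3. *Ndufb6* (chr4:40217696-40226401) was at 67.3, 84.9 and 107 RPKM at D0 and 65.0, 44.6 and 89.1 at D3. In both genes H2A.Z AP3 was highest on each day, and the KD-labelled library fell from the middle of *Ndufb6* at D0 to the lowest at D3. *Ndufa5* was at 40.7, 43.1 and 51.6 RPKM at D0 and 58.2, 39.6 and 70.5 at D3. *Ndufs6*, which carries a zinc site and belongs to the late stage of assembly, was at 41.4, 61.7 and 59.3 RPKM at D0 and 75.8, 52.3 and 72.2 at D3. For *Ndufs6* the H2A.Z WT library was thus the lowest of its day at D0 and the highest at D3. In complex I the highest mean over the libraries was 145 RPKM for *Ndufa7* and the lowest 13.5 for *Ndufa11*.

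Complex II, succinate dehydrogenase, is wholly nuclear-encoded and also acts in the TCA cycle. *Sdha*, the flavoprotein, was at 98.0, 118 and 122 RPKM at D0 in the WT, KD-labelled and AP3 libraries and at 136, 110 and 120 at D3. *Sdhb*, the iron-sulfur subunit, lay between 54.3 and 69.3 RPKM. The membrane anchors *Sdhc* and *Sdhd* lay between 54.3 and 63.6 and between 70.2 and 90.3 RPKM. None of the 4 genes passed 1.5-fold in any comparison.

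In complex III, which passes electrons from ubiquinol to cytochrome c, the highest value of a gene was at most 1.54 times its lowest. *Uqcrc1* and *Uqcrc2*, the core proteins, lay between 84.5 and 115 and between 75.3 and 96.2 RPKM, and the Rieske protein *Uqcrfs1* between 59.0 and 73.5. *Uqcrb*, the member with the highest mean at 137 RPKM, was at 110, 145 and 148 RPKM at D0 and 144, 109 and 168 at D3. It was the only gene of this complex past 1.5-fold in any comparison, and its exons overlap the antisense gene model *Gm10767*, whose part was not tested.

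Complex IV, cytochrome c oxidase, had higher levels, with a median over its 11 subunits of 172 to 236 RPKM. *Cox4i1* was highest, at 375, 353 and 434 RPKM at D0 in the WT, KD-labelled and AP3 libraries and 378, 368 and 455 at D3. *Cox5a* lay between 168 and 211 RPKM, *Cox5b* between 204 and 277 and *Cox7a2*, the lowest, between 52.5 and 81.6. *Ndufa4* was at 180, 145 and 231 RPKM at D0 and 153, 148 and 236 at D3. H2A.Z AP3 was the highest library of its day for *Cox4i1*, *Cox5a*, *Cox5b* and *Ndufa4*.

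Complex V had both the highest single value and the widest spread of levels. *Atp5b*, the catalytic β subunit of F1, was at 826, 948 and 1038 RPKM at D0 and 990, 815 and 946 at D3. *Atp5a1*, the α subunit with which it alternates in the F1 ring, was at 515, 489 and 535 RPKM at D0 and 510, 495 and 516 at D3, the narrowest range of any subunit. The β gene thus varied more than the α gene although both proteins are present in equal numbers in the enzyme. *Atp5k*, a small membrane subunit found where ATP synthase forms dimers (chr5:108862272-108863397), was at 53.6, 85.8 and 81.8 RPKM at D0 and 126, 60.2 and 117 at D3. For *Atp5k* the H2A.Z WT library was the lowest at D0 and the highest at D3, and the KD-labelled library went the other way.

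**Figure D3:**
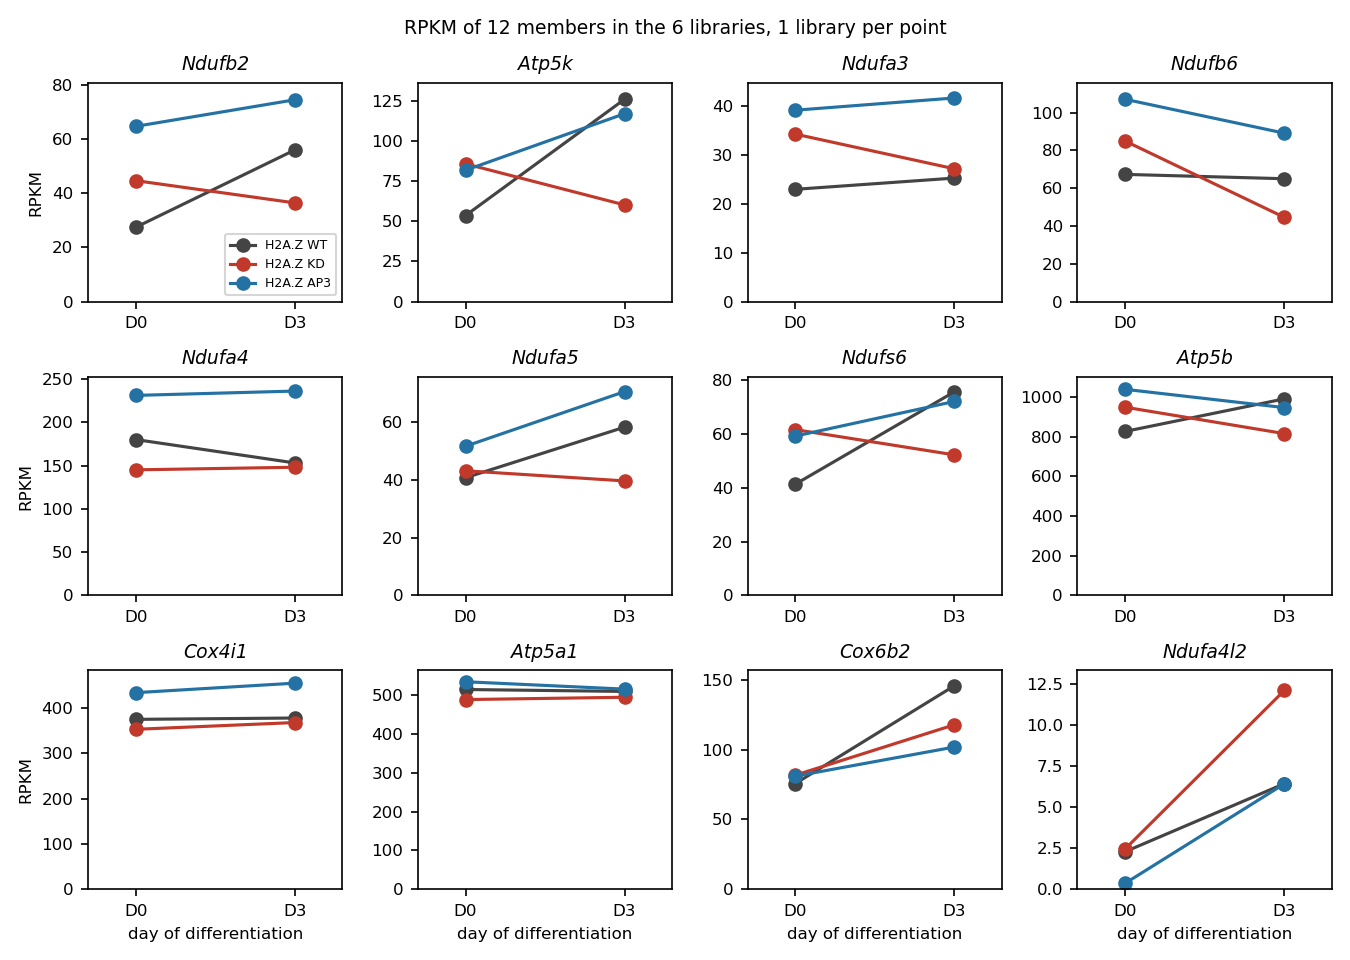
RPKM (y axis, from 0) of 12 members at D0 and D3 in the WT, KD-labelled and AP3 lines, 1 library per point. *Ndufb2*, *Atp5k* and *Ndufs6* show the H2A.Z WT line rising and the KD-labelled libraries falling between days, whereas *Atp5a1* stays between 489 and 535 RPKM.

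The genes *Atp5g1*, *Atp5g2* and *Atp5g3* encode the same mature c subunit of the Fo ring, and reads were compared between them as shares of their summed RPKM. *Atp5g2* held 55.4%, 51.2% and 55.6% in the WT, KD-labelled and AP3 libraries at D0 and 58.7%, 54.2% and 50.5% at D3. *Atp5g3* held between 30.5% and 35.6%, and *Atp5g1* between 9.51% and 14.1%. The order of the 3 genes was the same in every library. *Atp5g1* had its lowest share in the H2A.Z WT library at D3, where *Atp5g2* reached 519 RPKM, its highest level.

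Most tissue-restricted isoforms were at or near 0. *Cox6a2* and *Cox8b*, the heart and muscle isoforms of complex IV subunits, did not exceed 0.11 and 0.834 RPKM, and *Cox7b2* and *Cox8c* did not exceed 0.464 and 0.229. *Cox4i2*, the lung isoform of *Cox4i1*, was at 0.289, 1.04 and 0.829 RPKM at D0 and 0.458, 0.432 and 0.426 at D3, which is at most 0.293% of the summed level of both genes. An estimated 3 to 18 reads lie behind these *Cox4i2* values, so its fold changes are within reach of counting error.

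*Cox6b2*, known as the testis isoform of *Cox6b1*, was an exception. It was at 75.8, 81.8 and 81.1 RPKM at D0 in the WT, KD-labelled and AP3 libraries and at 146, 118 and 102 at D3. *Cox6b1* was at 152, 116 and 144 RPKM at D0 and 128, 182 and 173 at D3. *Cox6b2* thus made up 33.2% to 41.5% of the pair at D0. At D3 it made up 53.4% of it in the H2A.Z WT library, 39.3% in the KD-labelled library and 37.1% in H2A.Z AP3. *Cox7a1*, the heart and muscle isoform of *Cox7a2*, was at 15.7, 15.3 and 14.5 RPKM at D0 and 11.8, 11.1 and 10.0 at D3. Its share of the pair was 18.4% to 23.0% at D0 and 10.9% to 14.2% at D3, so every D3 library lay below every D0 library.

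*Ndufa4l2*, a hypoxia-induced relative of *Ndufa4* (chr10:126951995-126959491), was at 2.28, 2.45 and 0.356 RPKM at D0, then 6.42, 12.1 and 6.41 at D3. All D3 libraries lay above all D0 libraries. The value of 0.356 RPKM in the H2A.Z AP3 library at D0 rests on an estimated 10 reads. Its exons overlap *Shmt2* on the other strand, a mitochondrial serine hydroxymethyltransferase gene at 33.6, 43.8 and 44.6 RPKM at D0 and 35.0, 30.0 and 41.2 at D3, which moved the other way in the KD-labelled libraries. A library kit that marks strand is not stated, so reads of an overlapping antisense pair could not be told apart.

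**Figure D4:**
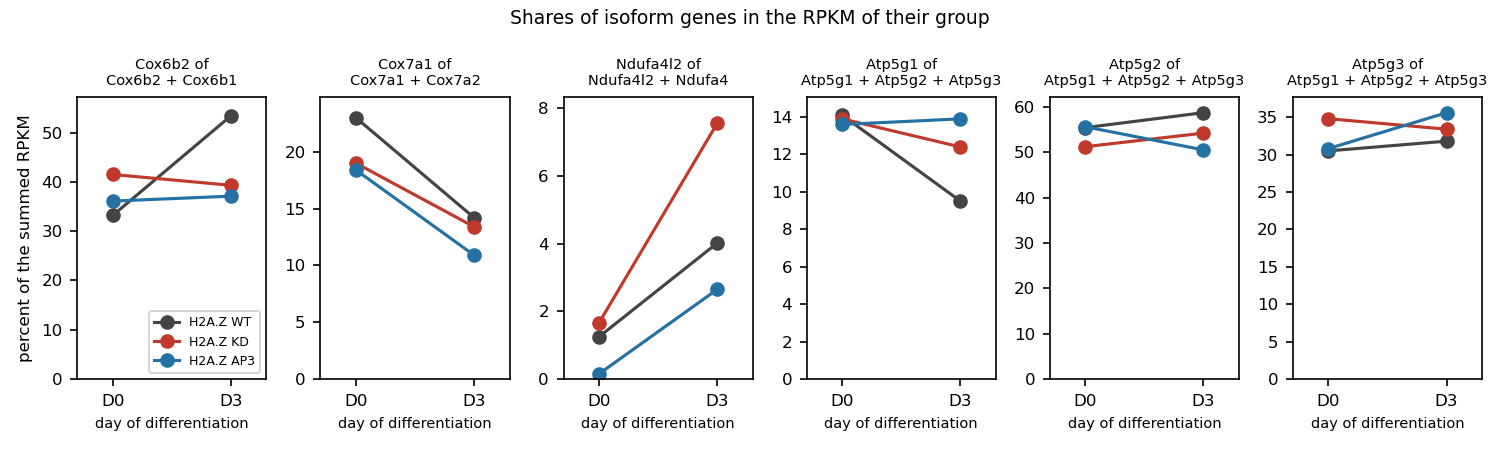
Percent of the summed RPKM (y axis, from 0) held by *Cox6b2*, *Cox7a1* and *Ndufa4l2* within their pairs and by each of the 3 c subunit genes, at D0 and D3 in the 3 lines, 1 library per point. *Cox7a1* goes from 18.4% to 23.0% at D0 to 10.9% to 14.2% at D3, and *Cox6b2* reaches 53.4% only in the H2A.Z WT library at D3.

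A log2 change is the difference of log2(RPKM + 0.001) between the libraries, and a gene was counted past the threshold when its ratio exceeded 1.5-fold in either direction, the fold used in the study. In H2A.Z AP3 against WT ESCs the medians of the 5 complexes were higher by similar, small amounts. The members' median log2 change was 0.23 over 85 members tested (1.17-fold), against 0.00 over all 12162 rows tested. Of the members, 69 were above 0, beside 50.6% of all rows. By complex the medians were 0.24 (I), 0.26 (II), 0.24 (III), 0.25 (IV) and 0.25 (V), whereas the tested isoforms and factors were at -0.15. All 4 complex II genes, 32 of 36 in complex I, 7 of 8 in complex III, 10 of 11 in complex IV and 13 of 15 in complex V were above 0.

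Few members passed 1.5-fold in this comparison. Of them 4 were higher, beside 7.79% of all rows, and 1 was lower, beside 6.07%. The higher genes were *Ndufb2* (log2 change 1.24), *Ndufa3* (0.77), *Ndufb6* (0.67) and *Atp5k* (0.61), and the lower gene was *Ndufa4l2* (-2.68, or -1.28 with a pseudocount of 1). Counting error alone gives a standard error of 0.05 for *Ndufb2*, 0.10 for *Atp5k* and 0.51 for *Ndufa4l2*, and it does not cover differences between cultures. The value for *Ndufb2* takes its median annotated length of 2413 bases, against 690 for the median member, and a shorter transcript would give a larger error. With each library rescaled to the same sum the median fell to 0.14 and that of all rows to -0.08, and *Atp5k* (0.53) was then within 1.5-fold while *Cox4nb* joined the lower members. Markers of other states also differed between these libraries. *Col1a1*, *Col1a2*, *Col3a1* and *Dcn* were past 1.5-fold higher in H2A.Z AP3 among 8 fibroblast markers tested, *Lum* was at 0 in the H2A.Z WT library and *Postn* at 0 in H2A.Z AP3. Of 8 early differentiation markers tested, the endoderm genes *Foxa2*, *Gata4*, *Gata6* and *Sox17* were past 1.5-fold higher (*Gata4* at 12.1 against 3.24 RPKM) and *Otx2* was lower (1.37 against 4.22). Of the 7 ESC markers, *Klf4* (65.9 against 121 RPKM) and *Sox2* (110 against 191) were past 1.5-fold lower. Their part in the members' shift was not tested.

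In H2A.Z AP3 against WT EBs the shift was smaller. The median of the members was 0.06, against -0.01 over 11981 rows, and 51 of 85 were above 0, beside 49.0% of all rows. Complex IV stood at 0.20 with all 11 subunits above 0, while complex I stood at 0.01 with 19 of 36 above 0. There were 2 members past 1.5-fold higher, beside 4.20% of all rows, namely *Ndufa3* (0.72) and *Ndufa4* (0.62). *Atp5s*, a factor for ATP synthase that is not a subunit, was lower (-0.75), beside 5.98% of all rows, with 8.28 and 4.92 RPKM. *Atp5g1* stood at 0.52 and *Atp5g2* at -0.25. With libraries rescaled to the same sum the median was 0.02 and *Ndufa4* (0.57) was within 1.5-fold. Of 5 fibroblast markers tested, *Col1a1* (0.74), *Col1a2* (0.86) and *S100a4* (1.66) were past 1.5-fold higher and *Thy1* (-1.37) lower, and their part was not tested.

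The KD-labelled library differed little from WT at D0. The median of 86 members was 0.06, against -0.03 over 12067 rows, and 55 members were above 0, beside 44.7% of all rows. Past 1.5-fold were 3 higher members, beside 3.37%, and 0 lower, beside 4.65%. These were *Ndufb2* (0.71), *Atp5k* (0.68) and the barely detected *Cox4i2* (1.84, with a counting standard error of 0.86, or 0.66 with a pseudocount of 1). *Cox4i2* reached the filter of 1 RPKM only in the KD-labelled library, at 1.04 against 0.289 RPKM. *Ndufs6* lay just under the threshold at 0.58, and *Atp5g3* stood at 0.49 with 183 and 257 RPKM. Both comparisons at D0 share the H2A.Z WT library, in which 48 subunits had the lowest value of the day, so their likeness is no separate observation. Centring the pair on the median of all rows gave 5 members past 1.5-fold in place of 3. *Fgf5* (1.11 against 0.539 RPKM) and *Gata4* (0.61) were higher among the early differentiation markers and *S100a4* (-0.60) lower among the fibroblast markers, and their part was not tested.

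At D3 the direction was the opposite, and the difference between the days was not tested. The members' median in the KD-labelled library against WT was -0.12, against -0.03 over 11956 rows, and 19 of 85 members were above 0, beside 45.3% of all rows. The medians were -0.15 for complexes I and II, -0.17 for III, -0.04 for IV and -0.22 for V. There were 5 members past 1.5-fold lower, beside 4.88% of all rows: *Atp5k* (-1.07), *Ndufa11* (-0.69), *Ndufb2* (-0.62), *Ndufa1* (-0.60) and *Ndufa2* (-0.60). With libraries rescaled to the same sum 2 of them stayed past it, and *Ndufb2* (-0.56), *Ndufa1* (-0.53) and *Ndufa2* (-0.54) did not. The last 2 were also within 1.5-fold with a pseudocount of 1 (-0.58 for both) and after centring. *Ndufa1*, encoded on the X chromosome, was at 49.0 and 32.4 RPKM and *Ndufa11* at 16.1 and 9.97. The exons of *Ndufa2* overlap *Tmco6* on the other strand, which was at 12.7 and 15.1 RPKM in these libraries. *Ndufa4l2* was the 1 higher member (0.91), beside 3.71%. In both directions together 6 of 85 members passed, beside 8.59% of all rows. With the filter raised to 10 RPKM it was 6 of 81 members, beside 3.42% of rows.

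The 7 ESC markers were all lower in this comparison, with a summed level of 1664 against 2066 RPKM, and none passed 1.5-fold. Of 4 fibroblast markers tested, 3 were past 1.5-fold lower, their list summing to 79.2 against 107 RPKM with *Lum* and *Postn* at 0 in both libraries. Among 9 early differentiation markers tested, *Gata4* (0.76) and *Gata6* (0.65) were past 1.5-fold higher and *Pax6* (-0.92) was lower. Their part in the members' values was not tested. The rescaled median of the members was -0.06 and that of all rows 0.03.

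H2A.Z AP3 was also set against the KD-labelled library. At D0 the median of 86 members was 0.17, against 0.04 over 12163 rows, and 64 were above 0, beside 53.8% of all rows. Rescaled to the same sum, the median was 0.10. *Ndufa4* was the 1 member past 1.5-fold higher (0.67), beside 11.7%. *Ndufa4l2* (-2.78, or -1.35 with a pseudocount of 1) and *Cox4nb* (-0.86, with 23.0 and 12.7 RPKM) were lower, beside 6.74%. *Cox4nb* encodes a subunit of the ER membrane protein complex, and its divergent neighbour *Cox4i1* stood at 0.30 in the same comparison. The members past the threshold were thus a smaller share than among all rows, in which this pair of libraries differed most within a day. Of 8 fibroblast markers tested, 5 were past 1.5-fold higher, *Col1a1* (1.06) and *Dcn* (3.78) among them, and *Klf4* (-0.99) and *Sox2* (-0.84) were lower. Of 9 early differentiation markers tested, 4 were past 1.5-fold higher and 3 lower. Their part in the members' values was not tested.

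At D3 the same contrast had a median of 0.19, against 0.02 over 11943 rows, and 70 of 85 members were above 0, beside 52.4% of all rows. All 15 complex V genes, all 4 complex II genes and 31 of 36 complex I genes were above 0. In all, 8 members were past 1.5-fold higher, beside 5.50% of all rows. They were *Ndufb2* (1.03), *Ndufb6* (1.00), *Atp5k* (0.96), *Ndufa5* (0.83), *Ndufa4* (0.67), *Ndufb4* (0.64), *Ndufa3* (0.62) and *Uqcrb* (0.62). Of these, 5 are accessory subunits of complex I, whose 7 core subunits had a median of 0.04 against 0.28 for the 29 accessory ones. The core transcripts are 870 to 2790 bases long and the accessory ones 350 to 2661, and the part of length was not tested. *Ndufa4l2* (-0.91) was the 1 lower member, beside 5.78%. In both directions together 9 of 85 members passed, beside 11.3% of all rows. With the filter raised to 10 RPKM it was 9 of 81 members, beside 5.66% of rows. Rescaled to the same sum, the median was 0.09 and that of all rows -0.09. Then 4 members were past 1.5-fold higher, and *Ndufa3* (0.51), *Ndufa4* (0.57), *Ndufb4* (0.54) and *Uqcrb* (0.51) were not. Among 5 fibroblast markers tested, *Col1a1* (1.47), *Col1a2* (2.00) and *S100a4* (2.69) were past 1.5-fold higher and *Thy1* (-0.62) lower. Of 9 early differentiation markers tested, *Foxa2*, *Gata4* and *Sox17* were lower and *Pax6* (1.29) higher. Of 7 ESC markers, 6 were above 0 with a median of 0.20 and 0 were past 1.5-fold, their list summing to 2015 against 1664 RPKM. Their part in the members' values was not tested.

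**Figure D5:**
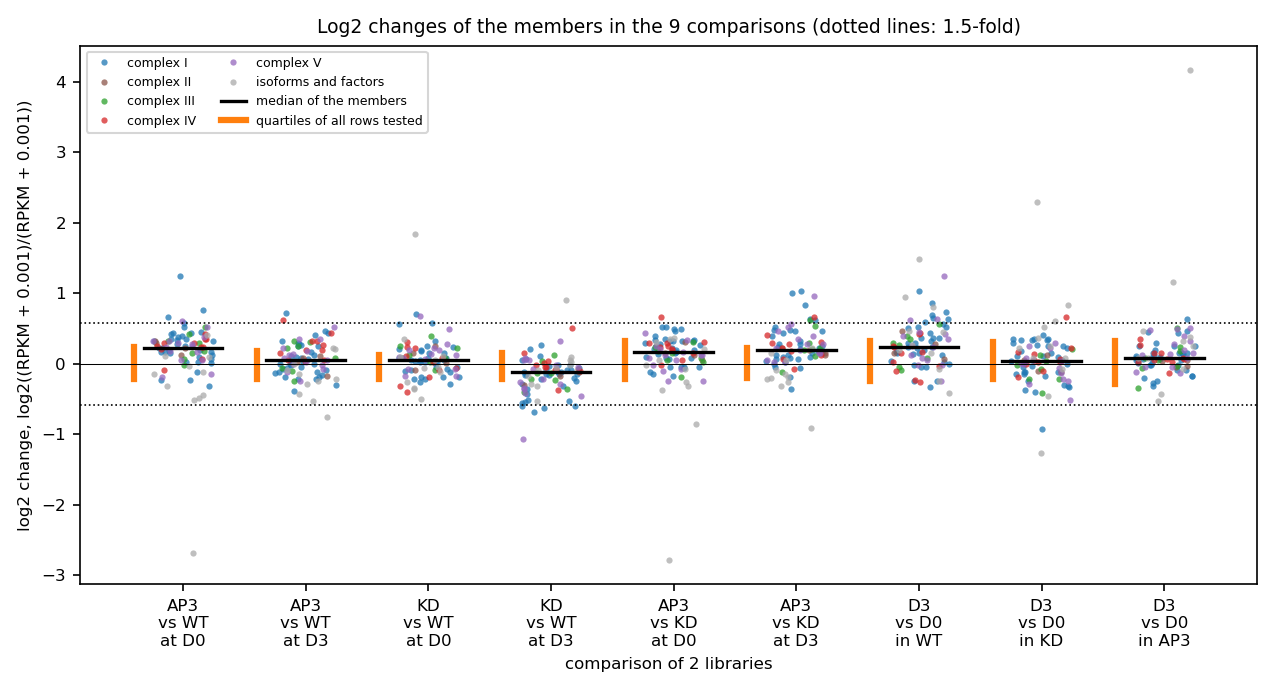
Log2 change (y axis) of each member tested in the 9 comparisons of 2 libraries, coloured by complex, with the members' median (black line), the quartiles of all rows tested (orange bar) and 1.5-fold marked by dotted lines. The medians lie highest for D3 against D0 in H2A.Z WT (0.24) and H2A.Z AP3 against WT at D0 (0.23), and the only one below 0 is the KD-labelled library against WT at D3 (-0.12).

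Between ESCs and EBs the members rose most in the H2A.Z WT line. The median was 0.24 over 85 members, against 0.04 over 12240 rows, and 67 were above 0, beside 53.7% of all rows. In this line 13 members were past 1.5-fold higher, beside 12.4% of all rows, and 0 were lower, beside 10.6%. The share of higher members (13 of 85, or 15.3%) was close to that of all rows. With libraries rescaled to the same sum 7 were higher, and *Ndufa1* (0.55), *Ndufa2* (0.51) and *Atp5g2* (0.51) were then within 1.5-fold. Of the 10 with the largest change, *Ndufa4l2* stood at 1.49, *Atp5k* at 1.24, *Ndufb2* at 1.03, *Cox6b2* at 0.95 and *Ndufs6* at 0.87. *Atp5s* (0.80), *Ndufc1* (0.73), *Ndufa1* (0.69), *Ndufa2* (0.65) and *Atp5g2* (0.64) followed. Rescaling to the same sum moved the median of all rows from 0.04 to -0.10 and that of the members to 0.11, since it moves all rows alike. *Klf4* and *Tdgf1* were lower among 7 ESC markers, and 7 of 9 early differentiation markers tested were higher, *Fgf5*, *Otx2* and *Gata4* among them, with a median over the list of 2.08. Of 7 fibroblast markers tested 5 were lower. Their part in the members' values was not tested.

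In the KD-labelled libraries the members did not shift as a group. The median was 0.04, the same as over all 12184 rows, and 51 of 86 members were above 0, beside 54.9% of all rows. With libraries rescaled to the same sum the median was -0.01. Here 4 members were past 1.5-fold higher, beside 12.4% of all rows, namely *Ndufa4l2* (2.30), the complex I assembly factor *Ndufaf3* (0.83, from 5.14 to 9.13 RPKM), *Cox6b1* (0.66) and *Atp5s* (0.61). *Ndufb6* (-0.93) and *Cox4i2* (-1.26, or -0.51 with a pseudocount of 1) were lower, beside 9.86%. Of the subunits only *Cox6b1* and *Ndufb6* passed the threshold, and *Atp5s* (0.55) did not when rescaled. Of the ESC markers *Esrrb*, *Klf4* and *Zfp42* were past 1.5-fold lower. Of 9 early differentiation markers 7 were higher, with a median over the list of 1.99, and *Nes* was lower. Of 7 fibroblast markers tested 5 were lower, and the part of these lists was not tested.

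In H2A.Z AP3 the median was 0.09, against 0.04 over 12204 rows, and 61 of 85 members were above 0, beside 53.6% of all rows. With libraries rescaled to the same sum it was -0.01 and that of all rows -0.06, so its sign depended on the scaling. In this line 3 members were past 1.5-fold higher, beside 11.2% of all rows, and 0 were lower, beside 13.1%. They were *Ndufa4l2* (4.17, counting standard error 0.47, or 2.45 with a pseudocount of 1), *Cox4nb* (1.16, from 12.7 to 28.5 RPKM) and *Ndufv3* (0.64, from 29.0 to 45.1 RPKM, or 0.54 when rescaled). After rescaling 2 members were higher and 1, *Cox7a1*, was lower. Of the ESC markers *Esrrb* and *Klf4* were past 1.5-fold lower, 5 of 9 early differentiation markers were higher, with a median of 0.60, and 7 of 8 fibroblast markers tested were lower, and their part was not tested. Across the 3 lines, 24 of 74 subunits (32.4%) were higher at D3 in all lines, against 27.2% of other rows at 10 RPKM or more, and 2 (2.7%) in none, against 17.5%. Between these days 5, 5 and 7 fibroblast markers were past 1.5-fold lower in WT, KD-labelled and AP3, *Col1a1* and *Col1a2* among them in each line, and 1 (*Thy1*) was higher in each. Their part was not tested.

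Other genes of mitochondrial metabolism were read from lists chosen with earlier results known. Among 16 genes of pyruvate dehydrogenase and the TCA cycle, the median was 0.21 in H2A.Z AP3 against WT at D0, close to the members' 0.23, with 0 past 1.5-fold, and 12 above 0. In the KD-labelled library against WT at D3 it was -0.11 with 3 of 16 above 0. *Pdha1*, a subunit of pyruvate dehydrogenase, was the only one of this list past 1.5-fold in any comparison (0.65 in H2A.Z AP3 against the KD-labelled library at D0). The 75 mitochondrial ribosomal protein genes stood at 0.01 in H2A.Z AP3 against WT at D0 and at 0.16 at D3, unlike the members' 0.23 and 0.06. In H2A.Z AP3 against the KD-labelled library at D3 they stood at 0.22, near the members' 0.19, with 3 past 1.5-fold higher and 0 lower.

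Among 10 electron and inner membrane carriers the median was -0.04 in H2A.Z AP3 against WT at D0. *Cycs*, the somatic cytochrome c, was at 66.1, 71.4 and 80.9 RPKM at D0 in the WT, KD-labelled and AP3 libraries and 78.1, 58.0 and 88.3 at D3. It followed the order of the members and was past 1.5-fold in H2A.Z AP3 against the KD-labelled library at D3 (0.61). *Atpif1*, the inhibitor of ATP synthase, did not. It was at 205, 177 and 196 RPKM at D0 and 223, 254 and 242 at D3. *Cyct*, the testis cytochrome c, was at 32.8, 34.9 and 18.3 RPKM at D3, lowest in H2A.Z AP3 (-0.84 against WT). *Ucp2*, an uncoupling protein family member, was past 1.5-fold lower in H2A.Z AP3 against WT at D0 (-0.64), and the ADP/ATP carrier *Slc25a4* was higher at D3 against D0 in H2A.Z AP3 (0.64).

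The 23 assembly factors outside the rule that were found had a median of 0.05 in H2A.Z AP3 against WT at D0 and -0.17 in the KD-labelled library against WT at D3, with 0 past 1.5-fold in both. *Tmem126b*, which assembles the membrane arm of complex I, was at 8.10, 4.87 and 10.0 RPKM at D0 and 9.04, 12.2 and 7.81 at D3. It was therefore lowest at D0 and highest at D3 in the KD-labelled libraries. *Cox16* was past 1.5-fold higher at D3 against D0 in WT (0.63), and *Sco1*, which delivers copper to complex IV, was lower in the KD-labelled libraries (-0.63).

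Regulators of mitochondrial genes did not shift as a list, with medians between -0.03 and 0.07 over 16 tested genes in the 9 comparisons. *Tfam*, which packages and transcribes mitochondrial DNA, lay between 23.6 and 27.9 RPKM. *Ppargc1a*, the coactivator PGC-1α, was at 0.0349 to 0.131 RPKM and never passed the filter. *Ppargc1b* was at 1.81, 1.96 and 3.50 RPKM at D0 and 3.19, 2.44 and 1.93 at D3, past 1.5-fold in H2A.Z AP3 against WT at D0 (0.95) and in the opposite direction at D3 (-0.72). *Myc*, a growth regulator that also acts on mitochondrial genes, was at 6.50, 6.35 and 6.59 RPKM at D0 and 1.70, 2.25 and 5.61 at D3. It was thus past 1.5-fold higher at D3 in H2A.Z AP3 against WT (1.72) and against the KD-labelled library (1.32). *Peo1*, the mitochondrial DNA helicase, was lower in H2A.Z AP3 against WT at D0 (-0.62), and *Tfb2m*, a mitochondrial transcription factor, was lower at D3 against D0 in WT (-0.87). *Esrra*, a nuclear receptor that acts on respiratory genes, was at 6.72, 9.66 and 9.94 RPKM at D0 and 10.4, 7.28 and 10.6 at D3. Its values were lowest in H2A.Z WT at D0 and in the KD-labelled library at D3, the libraries in which most subunits were also lowest of their day. *Esrra* passed 1.5-fold only at D3 against D0 in WT (0.63). *Tfam* had the same lowest libraries over a narrow range, whereas *Nrf1*, *Gabpa* and *Yy1* were lowest of their day in H2A.Z AP3 at D0. The part of these regulators in the members' values was not tested.

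Members are short transcripts, with a median annotated length of 690 bases against 2026 over 19835 rows with a length. Among the 78 members at 10 RPKM or more in all libraries, the 27 under 600 bases had a median log2 range over the libraries of 0.56, against 0.47 for the longer ones. In other rows at this level the medians were 0.55 and 0.47. In H2A.Z AP3 against WT at D0 the medians were 0.30 for short and 0.23 for longer members, whereas other rows were at 0.04 and 0.01. At D3 they were 0.20 and 0.03 for members and 0.13 and 0.03 for other rows, so at D3 short rows of both kinds stood higher. In H2A.Z AP3 against the KD-labelled library at D3 the medians were 0.28 and 0.16 for members and 0.22 and 0.05 for other rows. The part of length in the members' values was not tested further. Exons of 17 members overlap another gene, and respiratory genes have many processed pseudogenes, with which reads aligned to several locations may be shared.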

How the data were processed

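Poly(A) RNA was sequenced as 6 Illumina TruSeq libraries. Per the labels and methods, the authors used TopHat and Bowtie 0.12.7, for single-end alignment to mm9, allowing 2 mismatches and 20 locations, and Cufflinks 1.3.0 gave the deposited RPKM values per gene, normalized to transcript length and mapped reads. The table also holds 6 columns of the authors' log2 ratios between lines, which were not used. Read counts were not used here, so no count model was run.

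Members and gene lists were chosen with earlier results of these data known. Rows reaching 1 RPKM in either library of a pair were compared as log2(RPKM + 0.001), with a threshold of 1.5-fold. There is 1 library per condition and no test was made. A separate culture for each library is not stated in the labels. Named genes were all members past 1.5-fold in a comparison, or the 10 with the largest change (pseudocount 1) where more passed, together with core subunits, isoforms and their partners, and the highest and lowest member of each complex. Companion genes could be named where past 1.5-fold or as regulators fixed by name, *Ppargc1a*, *Ppargc1b*, *Nrf1*, *Tfam*, *Cycs* and *Atpif1*. Cell type markers and mitochondrial ribosomal protein genes are given as lists with examples. *Gabpa*, *Yy1*, the promoter examples and the overlapping or neighbouring genes were named after their values were seen.

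Depth was estimated from the step that 1 read makes in RPKM on 3696 genes with 1 transcript over 1.5 kb, and it is approximate. Counting errors follow from that depth and the median annotated transcript length, and PCR copies of a molecule cannot be recognised. Gene coordinates are mm9, counted from 1. Lengths, overlaps and neighbours were read from GENCODE models on NCBIM37, the same assembly. The scripts were tested on simulated data. Alternatives were pseudocounts of 0.1 and 1, no filter, a 10 RPKM filter, rescaling, centring and subunits only. Python 3.11.15, numpy 2.4.6, pandas 2.3.3 and matplotlib 3.10.9 were used.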

Additional observations from a re-analysis of the deposited data

Results flagged for a closer look

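The following 3 results went in opposite directions on the 2 days when the KD-labelled libraries were set against WT, and none of these differences was tested, since there is 1 library per condition. The members' median log2 change was 0.06 at D0 and -0.12 at D3. *Atp5k* stood at 0.68 at D0 and -1.07 at D3. *Ndufb2* stood at 0.71 at D0 and -0.62 at D3. In the H2A.Z WT libraries all 3 rose between the days. In the KD-labelled libraries *Atp5k* went from 85.8 to 60.2 RPKM and *Ndufb2* from 44.6 to 36.4, and the members' median change was 0.04. Both contrasts of a day use that day's H2A.Z WT library.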

How the results depend on the processing

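The labels give no replicate numbers. Each of the 3 lines has a library of both days, and a fit of day with the lines as blocks, which would take different lines as replicates, was not run. The members' medians stayed within an interval around the main median under both other pseudocounts, without the filter, with the 10 RPKM filter and for subunits only. The interval was formed from the ordered values of the members. It takes the members as independent, which genes read from the same libraries are not, so it only sorts the settings. With each library rescaled to the same sum 6 medians moved out of the interval. They were then 0.14 (AP3 against WT, D0), -0.06 (KD against WT, D3), 0.09 (AP3 against KD, D3), 0.11 (D3 against D0, WT), -0.01 (the same in KD) and -0.01 (in AP3). Centring moved the last of these comparisons out of it, to 0.05. Within the interval, centring took KD against WT at D0 from 0.06 to 0.10 and D3 against D0 in KD from 0.04 to -0.00. The smaller moves under rescaling were to 0.02 (AP3 against WT, D3) and 0.10 (AP3 against KD, D0). Without a filter, members past 1.5-fold numbered 9 and 5 (AP3 against WT, D0 and D3), 5 and 10 (KD against WT), 7 (AP3 against KD, D0), 10 (D3 against D0, KD) and 6 (AP3), because isoforms near 0 then entered. These counts are of 90 members and stood beside 19.7% to 31.0% of all rows past 1.5-fold under the same setting. Rescaling gave 3 (KD against WT, D3), 5 (AP3 against KD, D3) and 7 (D3 against D0, WT), beside 8.68%, 12.2% and 23.3% of all rows, and centring gave 5 (KD against WT, D0), beside 7.93%. The 10 RPKM filter gave 3 (D3 against D0, KD), beside 13.1%. It gave 6 of 81 (KD against WT, D3) and 9 of 81 (AP3 against KD, D3), beside 3.42% and 5.66%. For AP3 against WT it gave 4 of 80 (D0) and 2 of 80 (D3), beside 7.23% and 4.1%. The other D0 pairs had 2 of 80 (KD against WT) and 2 of 80 (AP3 against KD), beside 2.43% and 10.9%. Between the days it gave 11 of 80 (WT) and 2 of 79 (AP3), beside 14.1% and 15.6%. Subunits only gave 1 (AP3 against KD, D0), 2 (D3 against D0, KD) and 1 (the same in AP3), as isoforms and factors were left out. The alternatives were run gene by gene for the 48 named changes of members past 1.5-fold. None of these changed sign, and rescaling took 14 of the 48 below 1.5-fold, a pseudocount of 1 took 4 (*Ndufa1* and *Ndufa2* in KD against WT at D3, *Atp5s* and *Cox4i2* in D3 against D0, KD) and centring took 3 (the same without *Cox4i2*). Depth limits genes near 1 RPKM, and differences between cultures are not covered by any value here.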
